A study of Mus musculus with 14 samples.

Results

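The genes described here are the protein-coding genes that lie on either side of App, the gene of the amyloid precursor protein, on mouse chromosome 16. Members were the gene symbols that the authors' deposited annotation places, as coding genes, within 10 Mb of App (chr16:74949685-95173766 on GRCm38, with App itself at chr16:84949685-85173766 on the minus strand), after App and 5 further genes of the window had been set aside by the selection rule. A member also had to reach a count of 10 in at least 6 of the 14 libraries. Of 118 such symbols 68 passed and 50 did not. The 50 included 24 keratin-associated protein genes, and the highest count that any of them reached in a library was 21 (Cldn14, a claudin of tight junctions). The count tables hold 55291 symbols in all, of which 15771 coding symbols pass the same count rule. 17 members lie at lower coordinates than App and 51 at higher coordinates. 59 of the 68 reached 10 counts in all 14 libraries.

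RNA came from organotypic cultures of mouse brain slices, which keep the hippocampus joined to the entorhinal cortex, prepared from mouse pups at postnatal day 4 to 5 and kept for at least 18 days, with 1 dentate gyrus per library. The 6 wildtype libraries were from cultures labelled C57BL/6 in the titles and C57BL/6J in the protocol (APP+/+) and the 8 APPko libraries from cultures of a gene-targeted line (APP-/-), so the comparison asks how transcript levels differ when the amyloid precursor protein is missing. All 8 APPko libraries carry the targeted allele together with whatever chromosomal DNA the line has around it, which was not genotyped here, so an effect of losing App and an effect of the DNA that surrounds the allele cannot be told apart. The labels name the libraries biological replicates but do not say which cultures shared an animal, and p-values therefore measure the spread between cultures.

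Genes next to a targeted gene are of interest because a knockout line is made in embryonic stem cells of one strain and then bred, and the DNA closest to the targeted site is the last to be exchanged for that of the strain it is bred to. A neighbour can also share regulatory DNA with the targeted gene. Most of the chromosomal segment around App corresponds to the human chromosome that is present in an extra copy in Down syndrome, so that several members, such as Dyrk1a, Rcan1 and Synj1, are known from work on gene dosage in the brain.

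Total counts ran from 16686909 to 31031126 per library. App itself, the check on the genotype labels, was at 808 ± 130 CPM (counts relative to library size, scaled by the trimmed mean of M-values, TMM; SD, n = 6) in wildtype, from 678 to 962, and at 214 ± 17.8 (SD, n = 8) in APPko, from 181 to 230, with a log2 change of -1.92 (SE 0.11, adjusted p = 9.2e-09). Where in App the remaining counts fall was not analysed here. The TMM factors of 2 wildtype libraries, 2 and 3, were 0.852 and 0.848, lower than the 0.977 to 1.09 of the other 12, and values without both are given beside the members described in detail. 3 wildtype and 7 APPko libraries have a count column whose header ends in f, and 3 wildtype libraries and 1 APPko library one that ends in m. Summed markers of dentate granule cells, the principal neurons of the tissue, were present in every library, at 502 to 1047 CPM in wildtype and 392 to 722 CPM in APPko. 5 of those 6 markers were lower in APPko and none passed the test. Summed microglial markers ran from 157 to 421 CPM in wildtype and from 334 to 564 CPM in APPko, and 4 of those 6 were higher, 1 of them past the test. The part of these marker differences in the members' results was not tested.

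5 of the 68 members differed between the genotypes at an adjusted p under 0.05 (edgeR's quasi-likelihood test over 22150 genes, Benjamini-Hochberg adjustment), which is 7.35% of the members beside 2.35% of all tested genes and 2.85% of tested coding genes. Btg3, Tiam1 and Ncam2 fell in APPko, and Map3k7cl and Cbr3 rose. Among all tested genes 1.41% were called lower and 0.944% higher. In 4 of the 5, all but Cbr3, the wildtype and APPko libraries did not overlap. Such a separation was seen in 5.88% of the members beside 1.12% of all tested genes and 1.41% of tested coding genes. The difference between these shares was not tested. The other 63 members had log2 changes between -0.47 and 1.03.

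**Figure D1:**
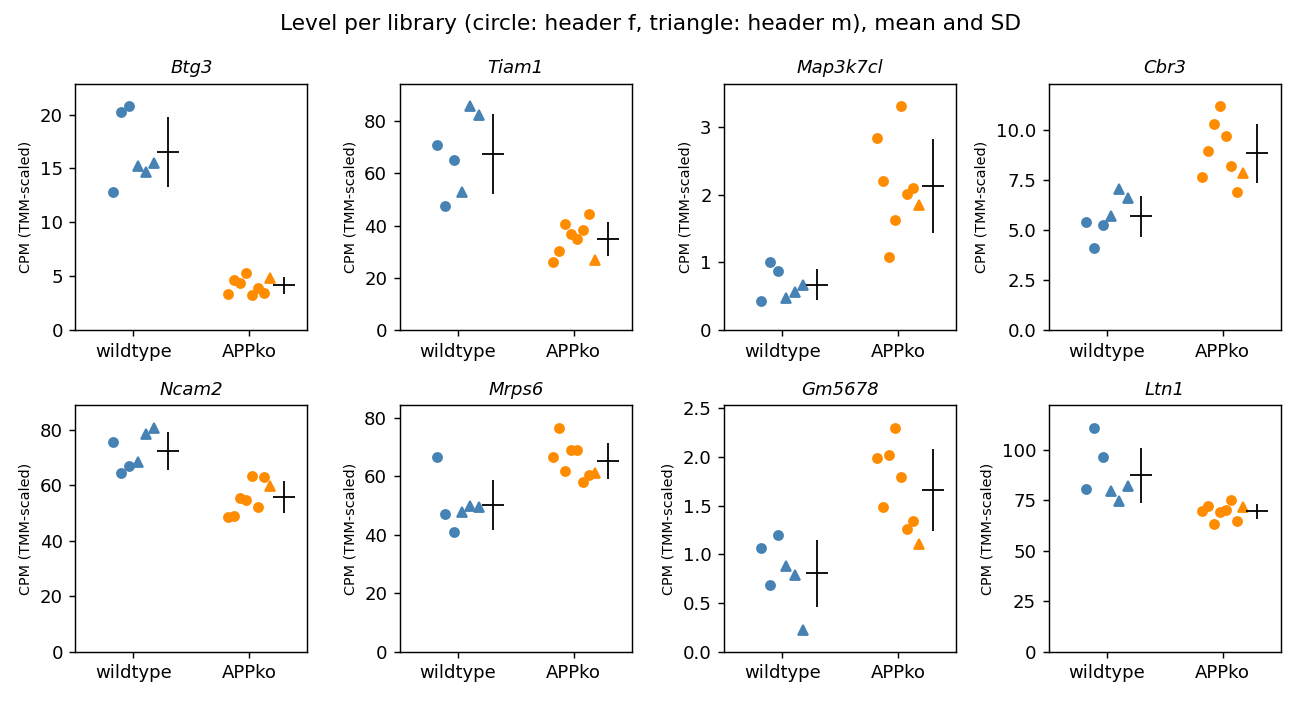
Level of the 8 members with the smallest p in each library (vertical axes, TMM-scaled CPM, starting at 0), with wildtype in blue and APPko in orange, circles for headers ending in f and triangles for m, and bars for the mean and SD. Btg3 lies between 12.8 and 20.8 CPM in the 6 wildtype libraries and between 3.24 and 5.32 in the 8 APPko libraries, and Tiam1, Map3k7cl and Ncam2 are separated as well, while Cbr3, Mrps6, Gm5678 and Ltn1 overlap.

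Btg3 belongs to the BTG/TOB family of proteins that restrain cell proliferation, and it lies at chr16:78332637-78377192 on the minus strand, 6.57 Mb from App. Its level in the wildtype libraries 1 to 6 was 12.8, 20.2, 20.8, 15.2, 14.7 and 15.5 CPM, and in the APPko libraries 1 to 8 it was 3.32, 4.6, 4.4, 5.32, 3.24, 3.86, 3.44 and 4.84 CPM. Every APPko library was below every wildtype library, and the single APPko library with an m header, library 8, was also below all 3 wildtype libraries with that header. The means were 16.5 ± 3.21 (SD, n = 6) and 4.13 ± 0.777 CPM (SD, n = 8), a 4.00-fold lower level in APPko (log2 change -2.0, SE 0.15, 95% interval -2.32 to -1.68, adjusted p = 4.3e-07). Without wildtype libraries 2 and 3 the log2 change was -1.81. In a bulk sample, fewer cells that express a gene and less of its RNA per cell cannot be told apart. Btg3 shares 695 exonic bases, 17.3% of its exons, with Cxadr on the opposite strand, and the strand setting of the authors' counting is not given in the sources used here, so reads from that stretch cannot be assigned. Cxadr, the coxsackievirus and adenovirus receptor of cell junctions, was measured at 46.9 ± 8.6 CPM (SD, n = 6) in wildtype and 42.8 ± 2.85 CPM (SD, n = 8) in APPko, a log2 change of -0.13 (95% interval -0.35 to 0.09).

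Tiam1, an activator of the small GTPase Rac that acts in dendritic spines and in cell migration, lies 4.61 Mb from App on the other side, at chr16:89787111-90143769 on the minus strand. Its level in wildtype libraries 1 to 6 was 70.9, 47.6, 65.0, 52.7, 85.8 and 82.5 CPM, and in APPko libraries 1 to 8 it was 26.2, 30.2, 40.5, 36.8, 34.8, 38.1, 44.4 and 26.7 CPM. The lowest wildtype library was library 2 and it was still above the highest APPko library. The means of 67.4 ± 15.4 (SD, n = 6) and 34.7 ± 6.56 CPM (SD, n = 8) gave a 1.94-fold lower level in APPko (log2 change -0.96, SE 0.15, 95% interval -1.27 to -0.65, adjusted p = 0.0059). Without wildtype libraries 2 and 3 the log2 change was -1.07. Among libraries with an f header it was -0.77.

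Ncam2, a neural cell adhesion molecule of the immunoglobulin family best known from olfactory axons, lies 3.32 Mb from App at chr16:81200697-81626828. Its level ran from 64.4 to 80.8 CPM in wildtype, with a median of 72.0, and from 48.5 to 63.3 CPM in APPko, with a median of 55.0. The groups did not overlap, but the gap between the lowest wildtype and the highest APPko library was small beside the spread within either group. The means were 72.5 ± 6.76 (SD, n = 6) and 55.7 ± 5.85 CPM (SD, n = 8), a 1.30-fold lower level (log2 change -0.38, SE 0.09, 95% interval -0.57 to -0.18, adjusted p = 0.042). The call rested on many single libraries. It held without wildtype library 1 or 4 (adjusted p = 0.040 and 0.024), and was lost without any one of wildtype libraries 2, 3, 5 and 6 and APPko libraries 1 to 8 (adjusted p = 0.054 to 0.10, log2 change -0.41 to -0.34). It was also lost without wildtype libraries 2 and 3 together (-0.44, adjusted p = 0.072).

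The bases just before the starts of the 3 members that fell are given so that the stretches can be set side by side. They are the 250 bases before starts listed in RefSeq's table (GRCm38.p6), read 5′ to 3′ in the direction of the gene. Each CpG dinucleotide is in capitals. The table had 57 of the 68 members.
Btg3, start 2, chr16:78376811-78377060, minus strand: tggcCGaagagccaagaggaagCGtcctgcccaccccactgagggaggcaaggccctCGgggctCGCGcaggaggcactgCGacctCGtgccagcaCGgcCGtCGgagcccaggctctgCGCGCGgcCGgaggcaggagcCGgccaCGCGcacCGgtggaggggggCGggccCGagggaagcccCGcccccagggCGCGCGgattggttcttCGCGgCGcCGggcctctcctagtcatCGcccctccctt
Ncam2, chr16:81200447-81200696, plus strand: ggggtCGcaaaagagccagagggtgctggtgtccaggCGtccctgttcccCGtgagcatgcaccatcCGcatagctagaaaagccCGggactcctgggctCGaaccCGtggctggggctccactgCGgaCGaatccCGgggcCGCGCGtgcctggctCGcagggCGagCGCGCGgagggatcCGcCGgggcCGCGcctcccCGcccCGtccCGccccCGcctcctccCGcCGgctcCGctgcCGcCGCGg
Tiam1, start 1, chr16:89974700-89974949, minus strand: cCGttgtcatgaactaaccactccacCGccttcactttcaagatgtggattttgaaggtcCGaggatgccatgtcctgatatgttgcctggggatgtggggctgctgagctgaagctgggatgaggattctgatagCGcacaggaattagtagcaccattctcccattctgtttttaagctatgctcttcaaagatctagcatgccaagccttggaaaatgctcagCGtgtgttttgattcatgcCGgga
Tiam1, start 2, chr16:89818353-89818602, minus strand: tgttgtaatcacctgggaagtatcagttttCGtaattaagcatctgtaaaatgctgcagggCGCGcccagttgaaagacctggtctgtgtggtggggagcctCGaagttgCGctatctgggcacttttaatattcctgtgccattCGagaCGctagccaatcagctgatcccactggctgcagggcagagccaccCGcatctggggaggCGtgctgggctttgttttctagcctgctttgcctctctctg
The printed stretches of Btg3 and Ncam2 hold 29 and 32 CpG dinucleotides and those of Tiam1 hold 6 and 9. The stretch of the other listed start of Btg3, start 1, is not printed. It lies at chr16:78377182-78377431, at the edge of the annotated gene body, and holds 7. Over the 73 listed starts of the 57 members the median was 21, and 9.59% held fewer than 5, while coding genes tested had a median of 14 and 20.4% held fewer than 5. The printed Btg3 stretch lies inside its annotated gene body, which begins at 78377192 on the minus strand. Both Tiam1 stretches lie inside its annotated gene body, which begins at 90143769 on the minus strand, and the bases before that position were not listed. The listed starts of the 3 members that fell included both regions rich in CpG and regions poor in it.

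Map3k7cl, named for a resemblance to the carboxyl end of the kinase TAK1, lies at chr16:87553330-87595336, 2.38 Mb from App and nearest to it among the 5. It was expressed at a very low level, from 0.43 to 1.01 CPM in wildtype with a median of 0.61 and from 1.08 to 3.31 CPM in APPko with a median of 2.05. Each APPko library was above each wildtype library, but the highest wildtype library, library 2, and the lowest APPko library, library 3, nearly met. The mean rose from 0.666 ± 0.228 (SD, n = 6) to 2.13 ± 0.692 CPM (SD, n = 8), 3.18-fold (log2 change 1.67, SE 0.28, 95% interval 1.08 to 2.25, adjusted p = 0.012). Without wildtype libraries 2 and 3 the log2 change was 2.01.

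Cbr3, a carbonyl reductase that reduces aldehydes and ketones, lies at chr16:93683215-93690990, 8.51 Mb from App. Its level ran from 4.12 to 7.03 CPM in wildtype with a median of 5.56, and from 6.88 to 11.2 CPM in APPko with a median of 8.58. 7 of the 8 APPko libraries were above the highest wildtype library, and APPko library 7 was below wildtype library 5. The mean rose 1.56-fold, from 5.68 ± 1.03 (SD, n = 6) to 8.84 ± 1.47 CPM (SD, n = 8; log2 change 0.64, SE 0.15, 95% interval 0.33 to 0.95, adjusted p = 0.035). The call was lost without any one of wildtype libraries 2 and 3 and APPko libraries 1, 2, 4, 5, 6 and 7 (adjusted p = 0.054 to 0.082, log2 change 0.56 to 0.70), and without wildtype libraries 2 and 3 together (0.52, adjusted p = 0.17). Cbr1, a reductase of the same family in the same cluster, was at 61.6 ± 11.1 CPM (SD, n = 6) in wildtype and 67.8 ± 6.55 CPM (SD, n = 8) in APPko, a log2 change of 0.14 (95% interval -0.09 to 0.37).

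The size of the change did not follow distance from App in a simple way. Across the 68 members the size of the log2 change and the distance had a Spearman correlation of -0.05 and a Pearson correlation of -0.02, given as a description because genes in the same libraries are not independent. The signed change had a Spearman correlation of 0.16 with distance. By distance on both sides, 1 of 14 members within 2.5 Mb of App was called (Map3k7cl), 2 of 3 between 2.5 and 5 Mb (Ncam2 and Tiam1), 1 of 33 between 5 and 7.5 Mb (Btg3) and 1 of 18 between 7.5 and 10 Mb (Cbr3). The median size of the log2 change in these 4 stretches was 0.18, 0.38, 0.17 and 0.18. The second stretch holds 3 members beside 40 coding genes that failed the count rule, 24 of them keratin-associated protein genes, and its median is that of Ncam2 itself.

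**Figure D2:**
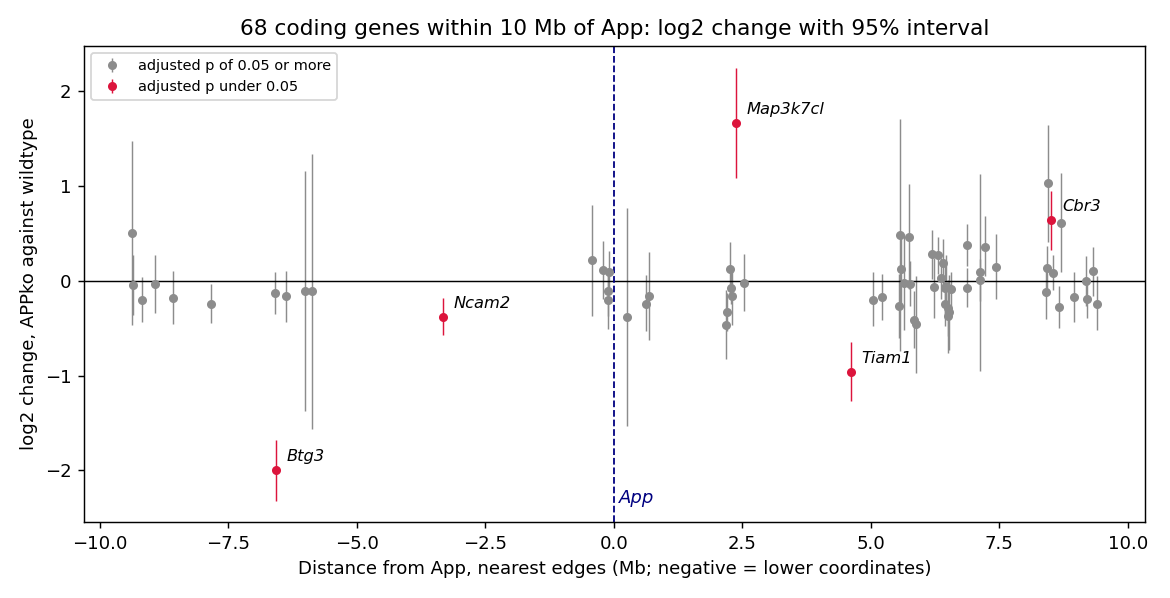
Log2 change of APPko against wildtype (vertical axis) with its 95% interval for each of the 68 members, against distance from App in Mb (horizontal axis, 0 at App, negative at lower coordinates), with the 5 called members in red. The members nearest to App lie between -0.38 and 0.22, the called members are spread from 2.38 to 8.51 Mb, and Btg3 has the lowest value at -2.0.

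The genes nearest to App showed small differences. Gabpa, an ETS-family transcription factor that drives genes of mitochondrial respiration, was at 27.7 ± 3.73 CPM in wildtype and 29.4 ± 3.22 CPM in APPko (SD, n = 6 and 8; log2 change 0.09, 95% interval -0.14 to 0.31). Atp5j, which encodes coupling factor 6 of the mitochondrial ATP synthase and shares 397 exonic bases with Gabpa on the opposite strand, was at 859 ± 174 and 793 ± 68.0 CPM (log2 change -0.11, 95% interval -0.37 to 0.14). Jam2, a junctional adhesion molecule, was at 59.2 ± 15.2 and 51.6 ± 9.27 CPM (log2 change -0.20, 95% interval -0.51 to 0.11). Among libraries with an f header Jam2 was at -0.55 (adjusted p = 0.012), and without wildtype libraries 2 and 3 at 0.04. For all 3 the groups overlapped and the interval stayed within a 2-fold change in either direction.

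On the side of higher coordinates the nearest members were Cyyr1, Adamts1 and Adamts5. Adamts1 and Adamts5 are secreted proteases that cut proteoglycans of the extracellular matrix. Adamts1 was at 46.1 ± 9.94 CPM (SD, n = 6) in wildtype and 39.1 ± 6.76 CPM (SD, n = 8) in APPko (log2 change -0.24, 95% interval -0.53 to 0.06, and -0.04 without wildtype libraries 2 and 3), and Adamts5 at 3.17 ± 0.587 and 2.83 ± 0.936 CPM (log2 change -0.16, 95% interval -0.62 to 0.30). Cyyr1, at 0.600 ± 0.294 and 0.454 ± 0.296 CPM, was too low for more than a wide interval (log2 change -0.38, 95% interval -1.53 to 0.77). A 2-fold fall of Cyyr1 in APPko lies within this interval and a 2-fold rise outside it. The smallest difference detectable at this level was not tested.

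The members nearest to a called gene were not called. Beside Btg3 lie Cxadr, which overlaps it, and D16Ertd472e at 163 kb, with log2 changes of -0.13 and -0.16. The members nearest to Tiam1 are Scaf4 at 81.9 kb and, beyond 40 coding genes that failed the count rule, Bach1 at 2054 kb, with changes of -0.20 and -0.02. Map3k7cl lies between Cct8 at 57.5 kb and Bach1 at 104 kb, with changes of -0.16 and -0.02. The members nearest to Ncam2 are 2110 and 2888 kb away, at -0.11 and 0.22. Beside Cbr3 lie the low-level predicted gene Gm5678 at 52.8 kb, which also had a higher level in APPko (log2 change 1.03, adjusted p = 0.065), and Dop1b at 20.9 kb (0.08). Over the 67 pairs of adjacent members the median difference in log2 change was 0.27, and over adjacent coding genes of all chromosomes it was 0.26.

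Outside the window the share of called genes on the chromosome was 9 of 412 coding genes (2.18%). It was 2 of 26 (7.69%) at 10 to 20 Mb from App and 7 of 386 (1.81%) further away. Tested coding genes beyond the window's edges include Robo2, an axon guidance receptor, at 10.54 Mb (log2 change -0.46, adjusted p = 0.047) and the transcription factor Ets2 at 10.53 Mb (-0.00). The last members inside are Lipi at 9.36 Mb (0.50) and Dyrk1a at 9.40 Mb (-0.24). At the edge of the count rule stand Mrap and Tmprss15, with 10 counts in 6 and 7 libraries, and below it Sim2 and Clic6, with 10 counts in 5 and 4.

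By role, the list of chromatin, replication and cell division genes held 7 members, 6 of them with a negative log2 change and a median of -0.28, beside a median of -0.01 over all tested genes. Only Btg3 of these passed the test. N6amt1, a methyltransferase that modifies a translation release factor, was at 74.9 ± 28.3 CPM (SD, n = 6) in wildtype and 54.1 ± 7.22 CPM (SD, n = 8) in APPko, with a log2 change of -0.47 (adjusted p = 0.14). Its wildtype values were 111 and 110 CPM in libraries 2 and 3 and 46.2 to 62.8 CPM in the other 4, and without libraries 2 and 3 the log2 change was -0.07. Morc3, an ATPase of nuclear bodies, had a log2 change of -0.28 (adjusted p = 0.14), and Donson, a replication factor, one of -0.29 (adjusted p = 0.22). Without wildtype libraries 2 and 3 these were -0.14 and -0.07. Chaf1b, a subunit of the chromatin assembly factor that loads histones at replication forks, went the other way at 1.04 ± 0.393 and 1.60 ± 0.295 CPM (log2 change 0.61, adjusted p = 0.17, and 0.58 without wildtype libraries 2 and 3).

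Neuronal signalling and membrane traffic was the largest list, with 11 members, 2 called (Tiam1 lower and Map3k7cl higher) and a median log2 change of -0.03. Rcan1, an inhibitor of the phosphatase calcineurin, was at 25.9 ± 6.60 CPM (SD, n = 6) in wildtype and 33.2 ± 5.69 CPM (SD, n = 8) in APPko (log2 change 0.36, 95% interval 0.05 to 0.68, adjusted p = 0.18, and 0.33 without wildtype libraries 2 and 3). The synaptic vesicle phosphatase Synj1 was at 290 ± 51.7 and 283 ± 29.6 CPM and the endocytic scaffold Itsn1 at 71.7 ± 6.43 and 67.3 ± 5.06 CPM, with log2 changes of -0.03 and -0.09 and intervals within a 1.5-fold change. Dyrk1a, a kinase with a known dosage effect in the brain, was at 120 ± 35.7 and 102 ± 3.52 CPM (log2 change -0.24, 95% interval -0.52 to 0.05). Its 2 highest wildtype values, 179 and 147 CPM, were those of libraries 2 and 3.

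The 4 cytokine receptor genes lie together at 6.20 to 6.37 Mb from App, and none passed the test. Ifnar1, a chain of the type I interferon receptor, ran from 19.1 to 26.1 CPM in wildtype (median 23.0) and from 25.3 to 30.3 CPM in APPko (median 27.0). 6 of the 8 APPko libraries were above the highest wildtype library. The log2 change was 0.27 (95% interval 0.07 to 0.46, adjusted p = 0.12), and 0.19 without wildtype libraries 2 and 3. Ifnar2, the partner chain, had a log2 change of 0.28 (95% interval 0.02 to 0.54, adjusted p = 0.20), and 0.35 without them. Ifngr2, of the interferon gamma receptor, and Il10rb, of the interleukin-10 receptor family, were at 0.03 and -0.07. These receptors are also made by microglia, whose summed markers were 259 CPM on average in wildtype and 411 CPM in APPko, and their part in the result was not tested.

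**Figure D3:**
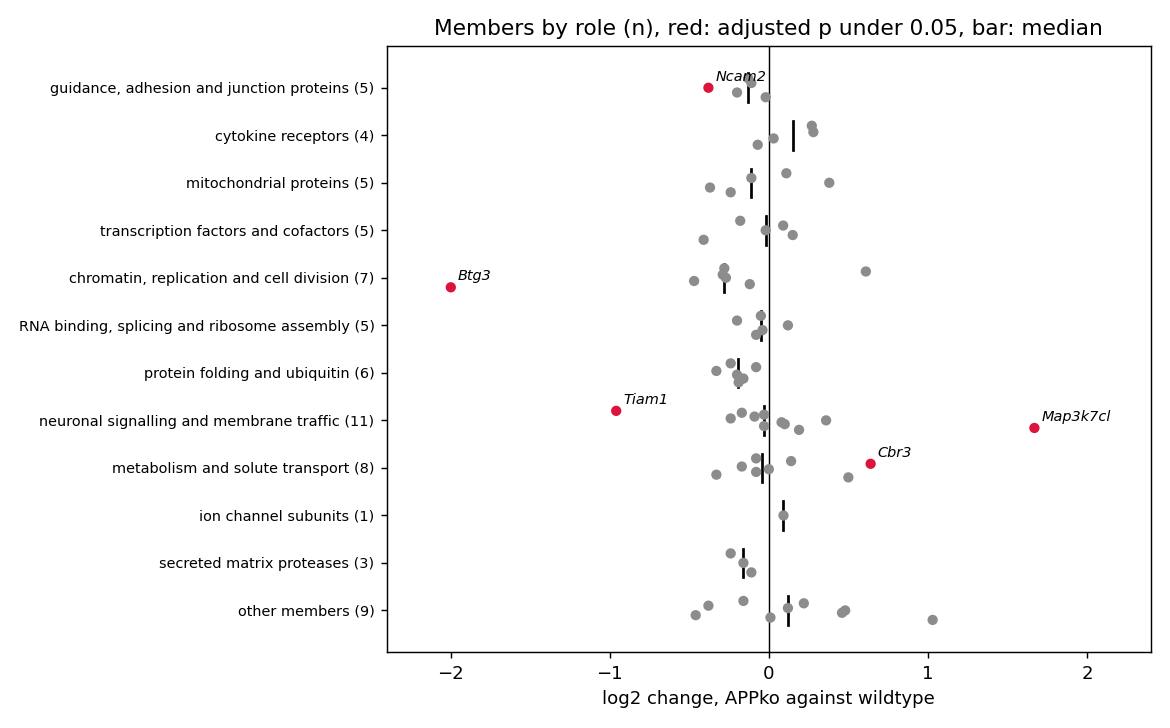
Log2 change of APPko against wildtype (horizontal axis) for the members of each role list (rows, number of members in brackets), with called members in red and named and a bar at each list's median. The medians lie between -0.28 and 0.15, and the 5 called members fall in 4 lists.

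None of the 5 mitochondrial members was called. Mrps6, a protein of the mitochondrial ribosome, came closest, with 40.8 to 66.5 CPM in wildtype (median 48.5) and 58.1 to 76.5 CPM in APPko (median 64.1). Mrps6 shares 305 exonic bases, 19.9% of its exons, with Gm49711 and 159 with Slc5a3, both on the same strand. All wildtype libraries but library 1, the highest, were below all APPko libraries. The log2 change was 0.38 (95% interval 0.16 to 0.60, adjusted p = 0.061), and without wildtype library 1 it was 0.48 and passed the test (adjusted p = 0.014), while without wildtype libraries 2 and 3 it was 0.30 (adjusted p = 0.27). Atp5o, the subunit that ties the catalytic head of ATP synthase to its stator stalk, was at 1526 and 1299 CPM in wildtype libraries 2 and 3 and at 632 to 807 CPM in the other 4, beside 646 to 916 CPM in APPko. Its log2 change was -0.37 (adjusted p = 0.26), and 0.06 without those libraries. Among libraries with an f header, which include both, it was -0.80 (adjusted p = 0.0039). Per kilobase of exon Atp5o had the highest wildtype level of all members, 414 CPM per kb, followed by Atp5j at 274 and the chaperonin subunit Cct8 at 98.5, while the median member stood at 4.7.

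All 6 members of the protein folding and ubiquitin list had negative log2 changes, from -0.33 to -0.08, and none passed the test. Ltn1, the listerin ubiquitin ligase that marks stalled nascent chains on ribosomes, ran from 74.5 to 111 CPM in wildtype (median 81.2) and from 63.4 to 75.3 CPM in APPko (median 70.0). 7 of the 8 APPko libraries were below the lowest wildtype library. The log2 change was -0.33 (95% interval -0.53 to -0.13, adjusted p = 0.069), and -0.18 (adjusted p = 0.38) without wildtype libraries 2 and 3. The deubiquitinase Usp25 and the ubiquitin ligase Ttc3, the member with the highest CPM in wildtype at 1458 ± 158 (SD, n = 6), had log2 changes of -0.24 and -0.19, and -0.13 and -0.11 without those libraries.

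In the remaining lists, 1 of 5 adhesion and junction genes was called (Ncam2). All 5 had negative log2 changes, from -0.38 to -0.02, beside 64.7% of all members. Of 8 metabolic genes 1 was called (Cbr3). None was called of the 5 transcription factors and cofactors, the 5 RNA-binding and splicing genes, the 3 secreted proteases and the 1 ion channel subunit. Paxbp1, which binds paired-box transcription factors, ran from 18.6 to 39.6 CPM in wildtype (median 31.2) and from 16.8 to 26.1 CPM in APPko (median 23.5). The groups overlapped, and its log2 change of -0.41 (adjusted p = 0.12) was the lowest of the transcription list. Without wildtype library 1, the lowest of its group, it was -0.52 and passed the test (adjusted p = 0.026), and without wildtype libraries 2 and 3 it was -0.22 (adjusted p = 0.57). The splicing cofactor Son was at 800 ± 200 CPM (SD, n = 6) in wildtype and 774 ± 121 CPM (SD, n = 8) in APPko. Gm5678, outside the role lists, was measured at 0.219 to 1.20 CPM in wildtype (median 0.832) and 1.11 to 2.30 CPM in APPko (median 1.64), and 7 of the 8 APPko libraries were above the highest wildtype library. Its log2 change was 1.03 (95% interval 0.41 to 1.64, adjusted p = 0.065), and 1.15 (adjusted p = 0.16) without wildtype libraries 2 and 3.

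Among all 68 members, 44 had a negative and 24 a positive log2 change, and the median was -0.08. 64.7% were negative, beside 51.7% of all tested genes. The median size of the change was 0.18, beside 0.22 over all tested genes and 0.21 over coding genes. At an unadjusted p under 0.05 stood 17 members (25%), beside 20.4% of all tested genes and 23.7% of tested coding genes. For 56 of the 68 the 95% interval lay within a 2-fold change in either direction, and for 45 within a 1.5-fold change. 6 members were under 1 CPM in both genotypes, where only large differences could be detected.

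The lean to negative values moved with wildtype libraries 2 and 3. The median deviation of the members from their own means was 0.18 and 0.15 on the log2 scale (pseudocount 0.5 CPM) in wildtype libraries 2 and 3, and -0.09 to 0.06 in the other 12. Those libraries were the 2 highest of the wildtype group in 26 members (38.2%), beside 21% of coding genes. They were its 2 lowest in 11 members (16.2%), beside 18.5% of coding genes. Without wildtype libraries 2 and 3 the members' median log2 change was 0.01. The median coefficient of variation of the members was 21.1% in wildtype and 12.2% in APPko, and 16.1% in wildtype without those libraries. Over tested coding genes these values were 25.6%, 15.3% and 20.1%.

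Over all tested coding genes the log2 change rose with the GC content of the transcripts, from a median of -0.19 in the lowest of 10 equal bins of GC content to 0.26 in the highest. Among the members the Spearman correlation of the signed change was 0.36 with GC content (0.47 over coding genes) and -0.45 with exonic length (-0.17 over coding genes). Cbr3 has the highest transcript GC content of all members, 56.1%, and Ncam2 one of the lowest, 38.3%. With the GC trend removed, an alternative added after the data were seen, Btg3, Tiam1 and Map3k7cl stayed called at log2 changes of -1.93, -1.02 and 1.70, while Cbr3 was at 0.44 (adjusted p = 0.097) and Ncam2 at -0.30 (adjusted p = 0.13). The median log2 change of the members was then -0.04, beside -0.03 over all tested genes.

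**Figure D4:**
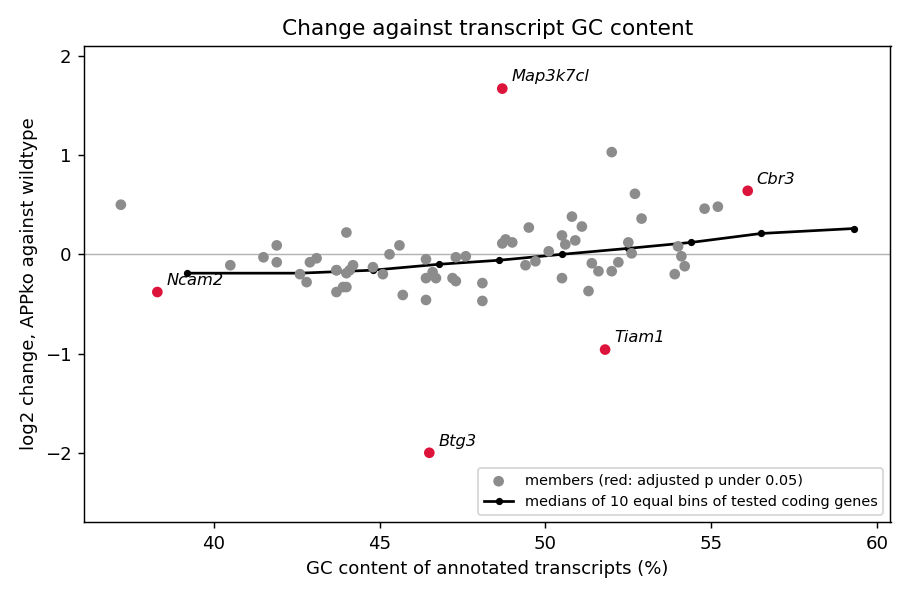
Log2 change of APPko against wildtype (vertical axis) against the GC content of annotated transcripts in percent (horizontal axis) for the 68 members, with the 5 called members in red, and the medians of 10 equal bins of tested coding genes as a black line from -0.19 to 0.26. Btg3, Tiam1 and Map3k7cl lie far from the line, while Cbr3 and Ncam2 lie on the same side of 0 as the line at their GC content.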

How the data were processed

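Per the labels' protocols, polyadenylated RNA of 1 dentate gyrus per library was turned into cDNA with 12 amplification cycles, 10 ng of it went into a library with 10 more cycles, and paired reads had 151 bp. The values are raw counts per gene symbol that the authors deposited in 1 table per library. Per the submitters' processing notes, the tools were featureCounts 2.0.1, STAR 2.7.8a and cutadapt 3.5 and the build was mm10 (GRCm38). How strand and multimapping reads were handled is not given in the sources used here. Gene types and positions came from the deposited GENCODE M25 annotation. The reads carry no molecular identifiers, so duplicates made by amplification cannot be told from reads of separate molecules.

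Libraries were grouped by title. The 22150 genes that passed edgeR's filterByExpr by genotype were scaled by TMM and compared with edgeR 4.0.16 (R 4.3.3), quasi-likelihood test, robust, all 14 libraries, no covariate, Benjamini-Hochberg adjustment over all tested genes, threshold 0.05. Log2 changes are APPko against wildtype, and CPM values are TMM-scaled with SDs over 6 wildtype and 8 APPko libraries. The procedure was tested on simulated data with 21483 tested genes. It recovered 30.8% of simulated 1.5-fold changes, 71.4% of 2-fold changes and 91.8% of 4-fold changes, with 9 false calls. The simulated counts used the real dispersions but were drawn gene by gene. They held no shared shift like that of wildtype libraries 2 and 3 and no GC trend, so these figures may not carry over to the real libraries. Distance is that between the nearest edges of 2 genes. GC content came from GENCODE M21 transcripts and promoter bases from RefSeq. Named genes were all called members, further members by smallest p up to 20, the 3 nearest to App on each side and the 3 with the highest level per kb. Others were named within their role lists, some after their values were seen. The members and lists were chosen with earlier results of these data known. 25 members share exonic bases with another gene, and Atp5o has 2 overlapping gene records. Donson and Atp5o share 287 exonic bases on the same strand.

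Alternatives were edgeR's RLE and upper-quartile factors, TMM without chromosome 16, DESeq2 1.42.0, limma 3.58.1 voom with quality weights, other filters, coding genes alone, the replicate block, the header suffix as a covariate or f libraries alone, libraries left out, other windows, distance between gene starts and a GC offset (lowess span 0.3, added after the data were seen).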

Additional observations from a re-analysis of the deposited data

Results flagged for a closer look

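The values of the 27 members named by the rule, 54 groups of libraries, were examined for a library far from the rest of its genotype, and 2 were found. Chance alone marks about 1 group in 20. Mrps6 stood at 66.5 CPM in wildtype library 1, beside 40.8 to 49.6 CPM in the other 5 wildtype libraries. Atp5o stood at 916 CPM in APPko library 8, the only APPko library with an m header, beside 646 to 757 CPM in the other 7.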

How the results depend on the processing

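Btg3 and Tiam1 passed the threshold in all 14 fits that left out 1 library and in all 13 other alternatives over the same members. Map3k7cl passed in all 14 and in 11 of the 13. It missed with the replicate block (adjusted p = 0.076) and had no adjusted p in DESeq2. Cbr3 passed in 9 of the 13 and missed with voom (adjusted p = 0.098), the replicate block (0.087), the GC trend removed and wildtype libraries 2 and 3 left out. Ncam2 passed in 6 and missed in the last 3 of these too, and with upper-quartile factors (adjusted p = 0.053), no expression filter (0.19), the header suffix as a covariate (0.055) and the f libraries alone (0.069). The count of called members, 5, was 3 to 8 when 1 library was left out. It was 8 without wildtype library 1 (11.8% of members, 4.58% of all genes) and 3 without any one of wildtype libraries 2 and 3 and APPko libraries 1, 2, 4, 5, 6 and 7 (0.174% to 0.67% of all genes). DESeq2 called 7 (10.3% of members, 8.13% of all genes). The count was 3 without wildtype libraries 2 and 3 together (4.41% of members, 0.147% of all genes), 3 with the GC trend removed (0.868% of all genes called), 12 in the f libraries alone (17.6% of members, 15.6% of all genes) and 3 of 17 in a window of 5 Mb each side. The cause was not tested.

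The median log2 change ranged from -0.10 to -0.05 and the Spearman correlation of the size of change with distance from -0.09 to 0.05 over the fits without 1 library. The median was 0.01 without wildtype libraries 2 and 3. The correlation was 0.31 in a window of 5 Mb and 0.13 in one of 20 Mb each side. Signs turned for Atp5j (0.02) and Cct8 (0.06) with voom, and for Atp5o (0.06), Atp5j (0.03), Jam2 (0.04) and Cct8 (0.08) without wildtype libraries 2 and 3. None of these was called in the main comparison, and Atp5o and Jam2 were called in the f libraries alone.

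The replicate numbers do not pair the samples. The correlation between same-numbered libraries ran from -0.339 to 0.186, and 2 of 6 pairs correlated best with their own number. With the replicate number as a block 2 members were called (Btg3 and Tiam1, 2.94% of members beside 0.0948% of all genes) and the correlation with distance was 0.08. Depth limits the members under 1 CPM.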
